A study of Triticum aestivum with 12 samples.

Results

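The comparison of E82 with the WT in the flag leaf is described here for the well counted genes, which are the genes with at least 50 estimated counts in every one of the 6 flag leaf libraries. Of the 107892 genes in the count table, 22560 met this minimum. Another 123 of them were left out because they lie in ranges of gene IDs on chromosomes 1B, 3A and 3D, which hold 8, 10 and 105 well counted genes, and 22437 genes remained. E82 is a bread wheat (Triticum aestivum) line derived from BW208, the WT, and self-pollinated over several generations. It carries 2 hairpin constructs against omega-, alpha- and gamma-gliadin genes, and their promoters act in the endosperm of the grain and not in the leaf. Flag leaves were taken during grain filling from 3 different plants of each line, grown in a greenhouse, which gives 3 biological replicates of E82 leaf and 3 of WT leaf. E82 is a single line, so the effect of the constructs and any other difference between the lines cannot be told apart.

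The flag leaf is the uppermost leaf of a wheat stem and supplies much of the sugar and nitrogen that reach the grain. Sucrose made in the leaf leaves the mesophyll and phloem parenchyma through SWEET proteins, which let sugars pass along their gradient, and is loaded into the phloem by SUT proteins, which move sucrose together with protons. Amino acids enter the phloem through carriers such as the amino acid permeases (AAP) and the proline transporters (ProT). As the leaf ages, proteases break its proteins down and release amino acids for export, while cystatins inhibit the papain-like cysteine proteases. Bread wheat has 3 subgenomes, A, B and D, so that most genes occur as 3 homeologs.

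The E82 leaf libraries were deeper, with 55529571 to 59921210 estimated counts, against 27173003 to 41002932 in the WT leaf libraries. They also held counts for more genes, 55916 to 59840 in E82 leaf, against 31558 to 45655 in WT leaf. The study also reports that a smaller share of reads aligned in each WT leaf library than in any E82 leaf library. The part of depth, gene number and alignment in the results was not tested. The well counted genes held 89.7 to 90.5% of the counts in E82 leaf and 89.0 to 94.1% in WT leaf. The minimum of 50 counts acted mostly through the WT. Among the 30673 tested genes outside the ID ranges that missed it, 16031 had at least 50 counts in all 3 E82 libraries, and 592 had at least 50 counts in all 3 WT libraries. WT replicate 3, the shallowest library, held the lowest count of 46.2% of the well counted genes. The tissue labels were checked with 7 grain genes, namely 2 Glo3 globulin, 2 OsBT1-1 and 3 TaPBF genes. In leaf, 1 of the 7 had any count, a Glo3 gene, with 0.0834 to 0.702 CPM (counts scaled to the size of the library) in the E82 libraries and 0 to 26.5 CPM in the WT libraries. The Glo3 genes together stood at 7535 to 12319.6 CPM in grain. In WT grain the OsBT1-1 genes had 1.21 to 34.9 CPM and the TaPBF genes 3.59 to 62.9 CPM. In E82 grain they had 0 CPM and 0 to 2.12 CPM. Their absence from leaf therefore cannot check the labels of E82, for which the check rests on the Glo3 genes. Among the leaf libraries the Glo3 level was highest in WT replicate 3, and its part in the results was not tested. In bulk leaf, fewer cells of a type and less RNA per cell cannot be told apart.

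The replicates of E82 resembled each other more than those of the WT did. Across the well counted genes, Pearson's r of log2 CPM was 0.948 to 0.966 between E82 libraries, 0.723 to 0.815 between WT libraries and 0.68 to 0.831 between the lines. WT replicate 3 stood apart, with r of 0.733 and 0.723 to the other WT libraries and 0.68 to 0.705 to the E82 libraries. WT replicate 1 was closer to E82 replicate 2 (r = 0.831) than to WT replicate 2 (r = 0.815). These coefficients are taken across genes, which are not independent replicates, and describe the libraries. The SD of log2 CPM was larger in the WT than in E82 for 83.4% of the genes, with a median of 0.24 in E82 and 0.59 in the WT. When the genes were ordered by mean log2 CPM over the 6 libraries and divided into 5 equal bins, the median SD in the lowest bin was 0.33 in E82 and 0.81 in the WT, and in the highest bin it was 0.21 in E82 and 0.39 in the WT. Since a wide spread lowers a mean of logs, the genes were also ordered by mean CPM, and the median SD in the lowest bin was then 0.32 in E82 and 0.77 in the WT.

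**Figure D1:**
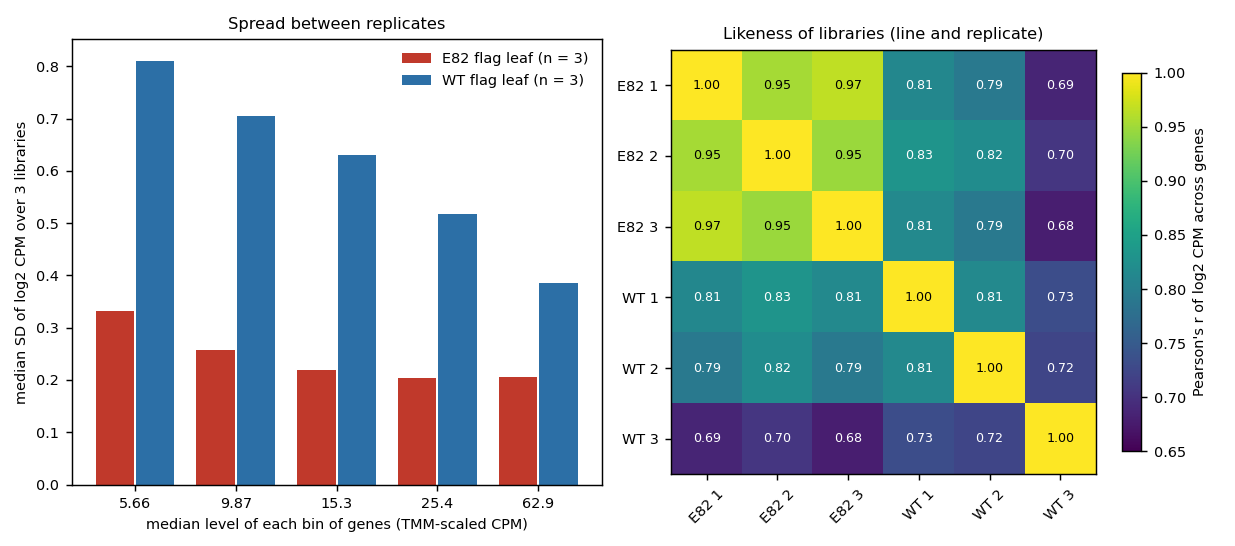
Left, the median SD of log2 CPM over the 3 libraries of E82 (red) and the 3 of the WT (blue) in each of 5 equal bins of the well counted genes, ordered by mean log2 CPM (median TMM-scaled CPM below the bars). Right, Pearson's r of log2 CPM across the well counted genes between each pair of leaf libraries. The WT bar is higher in every bin, and WT replicate 3 has the lowest r with every other library.

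Few well counted genes differed between the lines by the test over all genes, in which edgeR's quasi-likelihood test was run on the 53874 genes whose CPM summed to more than 1 over the 6 leaf libraries and p-values were adjusted over all of them (Benjamini-Hochberg). Of the 22437 genes, 8 were higher and 22 were lower in E82 at an adjusted p under 0.05. That is 0.0357% and 0.0981% of the well counted genes, against 0.0204% and 0.143% of all genes tested. Unadjusted p-values under 0.05 were found for 2740 genes with a higher and 2090 with a lower level in E82. Many adjusted p-values lay just above the threshold, since 1293 higher and 942 lower genes had an adjusted p under 0.1. When the same test was fitted on the 22560 well counted genes alone, 700 (3.12%) were higher and 974 (4.34%) were lower in E82, and they included all 30 genes called over all genes tested, in the same direction. Over all genes of that fit, 3.2% were higher and 4.37% lower. The text therefore gives both adjusted p-values for a gene, that over all genes tested and that over well counted genes alone, and a gene is said to have risen or fallen only where the first was under 0.05.

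These numbers changed when single libraries were left out. Such a fit also has 1 replicate fewer, and the part of that was not separated from the part of the library. Over all genes tested, no well counted gene was called higher, and at most 1 lower, without E82 replicate 1, E82 replicate 2, E82 replicate 3 or WT replicate 2, while 1603 to 2840 genes with a higher level had an unadjusted p under 0.05 in these fits. Without WT replicate 3 there were 2 higher and 5 lower genes, and without WT replicate 1 there were 1085 and 745. In the fit on well counted genes alone, the numbers were 938 higher and 1104 lower without WT replicate 3, 801 and 1107 without WT replicate 1, and 759 and 1074 without WT replicate 2. They were 5 and 50 without E82 replicate 1, 108 and 206 without E82 replicate 2, and 6 and 51 without E82 replicate 3. All 30 genes kept their direction in each of these fits. None of the 30 overlapped between the lines with all 6 libraries, so this adds no support.

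Most well counted genes differed little. The log2 fold change (log2FC, E82 over WT) lay within 1 of 0 for 78.6% of them, and its quartiles were -0.54 and 0.53. At least 1 log2 unit up were 2097 genes, and at least 1 down were 2701. At least 2 up were 78 genes, and at least 2 down were 411. The median was 0.00 in the well counted genes and 0.21 in all genes tested. These values depend on the scaling: with library totals alone the medians were -0.28 and -0.06, and with RLE factors they were -0.09 and 0.12. The called genes were 2 higher and 68 lower with library totals alone, and 3 and 28 with RLE factors. The levels of the 3 E82 libraries did not overlap those of the 3 WT libraries for 4343 genes that were higher in E82 (19.4%) and 3257 that were lower (14.5%), against 23.8% and 7.39% of all genes tested. With library totals in place of the TMM factors (trimmed mean of M-values), the shares among well counted genes were 11.4% higher and 21.9% lower, so that this split followed the scaling.

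The median difference was not the same at all levels, and the minimum of 50 counts bears on the low levels, because far more genes missed it through the WT than through E82. What that filter contributes to the values of the low bins was not tested. In the lowest of the 5 level bins of the well counted genes, with a median of 5.66 CPM, the median log2FC was -0.40, and the fit on well counted genes called 12 higher and 202 lower. In the highest bin, with a median of 62.9 CPM, the median log2FC was 0.36, and 445 genes were called higher and 262 lower. With bins by mean CPM, an ordering added after the data were seen, the median log2FC was -0.32 in the lowest bin, where 7 genes were called higher and 132 lower, and 0.39 in the highest bin. Among the 342 genes with a mean of at least 300 CPM, a limit chosen after the values were seen, 279 had a positive log2FC, and the median was 0.78 (0.50 with library totals). Of these abundant genes, 30 had a log2FC below -1, and 9 of the 30 were sugar transport genes.

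**Figure D2:**
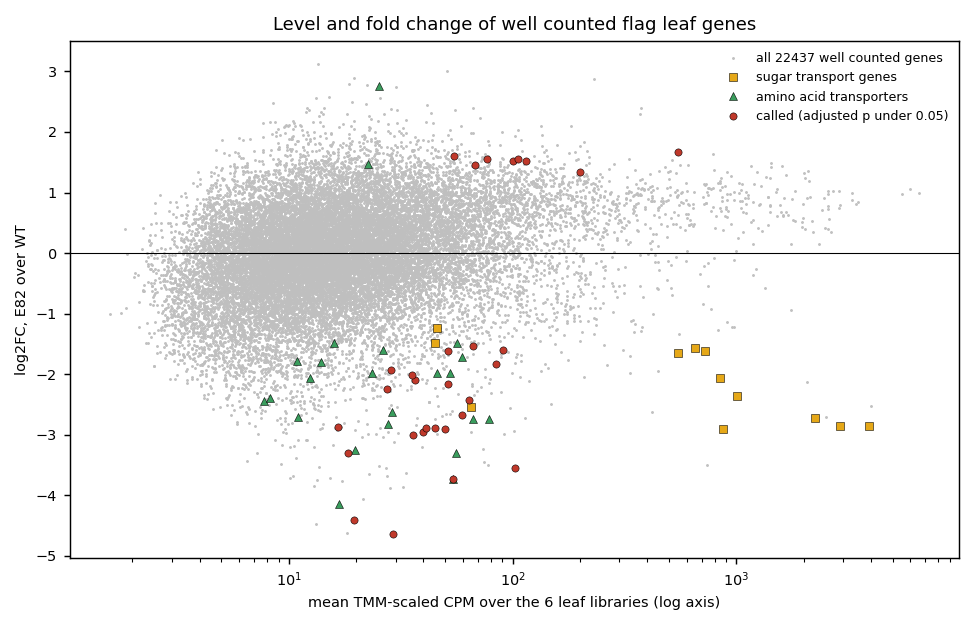
Each grey point is 1 of the 22437 well counted genes, with its mean TMM-scaled CPM over the 6 leaf libraries (x, log axis) and its log2FC, E82 over WT (y). Red circles are the 30 called genes, yellow squares the 12 sugar transport genes and green triangles the 23 amino acid transporters. Most genes above 300 CPM lie above 0, and the sugar transport genes at that level lie between -1.57 and -2.91.

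The 22 genes that fell in E82 leaf had log2FC of -1.53 to -4.64 and adjusted p-values of 0.00959 to 0.0466 (edgeR, over all genes tested). Between all 3 E82 and all 3 WT libraries none of the 22 overlapped. Only 1 of them has a name in the study's gene lists, TaProT2-3D (TraesCS3D02G408800, chromosome 3D), a homeolog of a proline transporter. Its level was 9.16, 7.34 and 6.18 CPM in the E82 libraries, against 125, 85.4 and 90.3 CPM in the WT libraries. TaProT2-3D fell by 3.73 on the log2 scale (standard error 0.27, adjusted p = 0.00959, and 0.00175 over well counted genes alone), which is 13.3-fold, and it had the lowest adjusted p of all well counted genes.

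The other 21 genes that fell are known only by their IDs in the files. The largest fall was that of TraesCSU02G056800, which has no chromosome assigned, with 3.51, 2.1 and 1.14 CPM in E82 and 45, 48 and 75.7 CPM in the WT (log2FC -4.64, standard error 0.51, adjusted p = 0.0459). TraesCS1A02G000200 had 1.66, 1.99 and 1.62 CPM in E82 and 39.4, 23.8 and 48.8 CPM in the WT (log2FC -4.41, standard error 0.39, adjusted p = 0.0215). TraesCS1D02G001600 had 11.9, 24.8 and 12.0 CPM in E82 and 251, 166.7 and 149.6 CPM in the WT (log2FC -3.54, standard error 0.40, adjusted p = 0.0459). All 3 were at least 10-fold below the WT mean. TraesCS4A02G053500 (log2FC -3.29) stood at 3.39 ± 0.66 CPM in E82 and 33.3 ± 7.1 CPM in the WT (SD, n = 3 each), and TraesCS7D02G420500 (log2FC -3.01) at 7.88 ± 2.01 and 63.6 ± 22.9 CPM. TraesCS2D02G113100 (log2FC -2.96) stood at 9.11 ± 1.71 CPM in E82 and 70.7 ± 10.1 CPM in the WT, and TraesCS3D02G392500 (log2FC -2.91) at 11.7 ± 2.96 and 88.2 ± 10.3 CPM. In these 4 the lowest WT library was at least 4-fold above the highest E82 library. The remaining 14 fell by 1.53 to 2.89 on the log2 scale.

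The 8 genes that rose in E82 leaf did so by less, with log2FC of 1.34 to 1.66, which is 2.54-fold to 3.17-fold, and adjusted p-values of 0.0459 to 0.0466, just under the threshold. None has a name in the study's lists. The largest rise was that of TraesCS2B02G152900, with 908, 717 and 879 CPM in E82 and 247, 276 and 267 CPM in the WT (log2FC 1.66, standard error 0.19, adjusted p = 0.0466). TraesCS5D02G105500 had 91.7, 75.3 and 80.6 CPM in E82 and 26.4, 26.8 and 27.9 CPM in the WT (log2FC 1.61). The E82 libraries of both genes were all more than 2-fold above every WT library. TraesCS7D02G293100 stood at 159 ± 9.96 CPM in E82 and 53.7 ± 6.37 CPM in the WT (SD, n = 3 each), TraesCS3A02G265900 at 114 ± 9.71 and 39.0 ± 4.32 CPM, and TraesCS6A02G233100 at 171 ± 5.39 and 59.4 ± 7.98 CPM. TraesCSU02G129700 stood at 149 ± 13.0 CPM in E82 and 51.9 ± 5.86 CPM in the WT, TraesCS5B02G121300 at 100.006 ± 0.34 and 36.4 ± 3.95 CPM, and TraesCS1A02G097000 at 288 ± 17.3 and 113 ± 2.52 CPM. All 8 belonged to the highest of the 5 level bins, where the spread between WT libraries was smallest. The 30 called genes as a group had a median SD of log2 CPM of 0.18 in E82 and 0.20 in the WT, against 0.24 and 0.59 over all well counted genes.

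**Figure D3:**
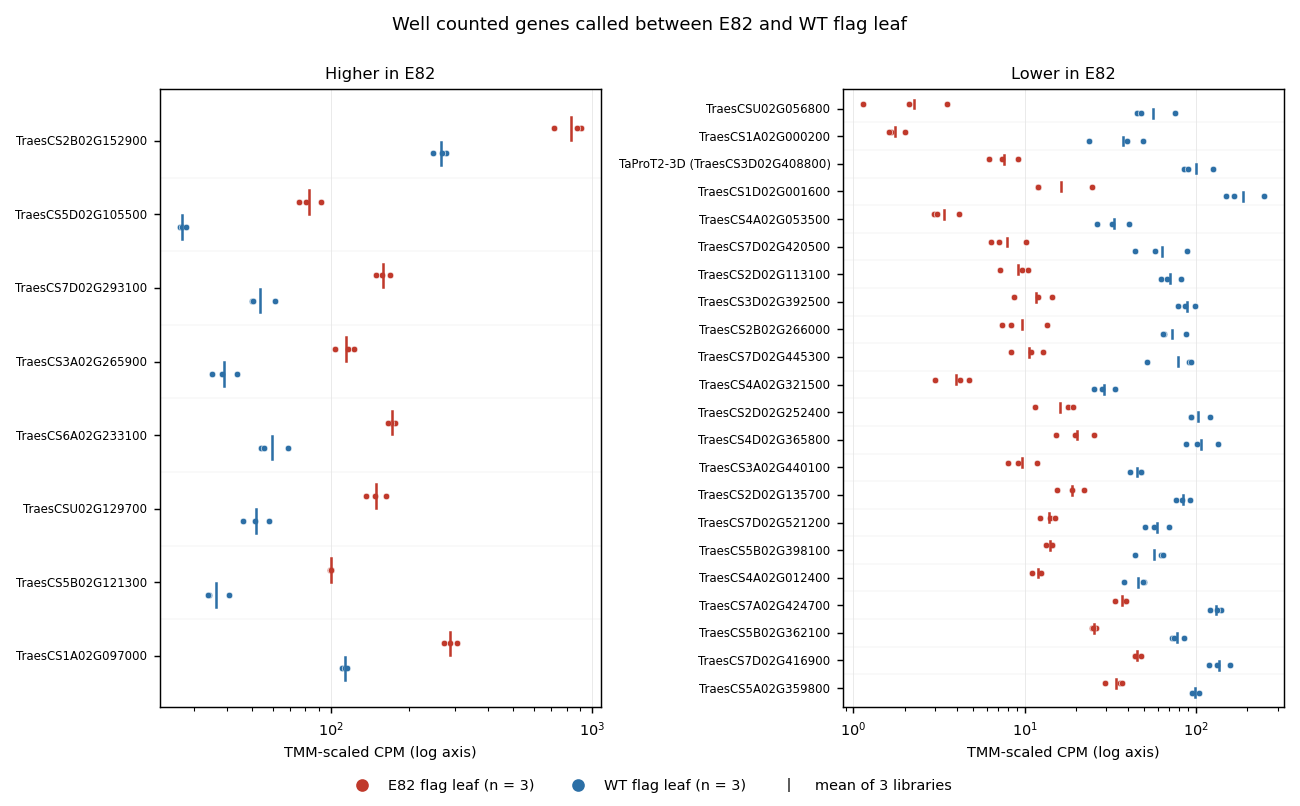
TMM-scaled CPM (log axis) of the 30 called genes in each leaf library, with E82 in red above the WT in blue, and a bar at the mean of 3 libraries. Left, the 8 genes that rose, and right, the 22 that fell. In each gene the red points lie wholly to one side of the blue ones.

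The same genes were looked up in the grain libraries. Of the 22 genes that fell in leaf, the grain libraries of E82 lay wholly below those of the WT for 1, TraesCS3A02G440100, and wholly above for 1, TaProT2-3D. Of the 8 that rose in leaf, 1 lay wholly above in grain, TraesCSU02G129700, and none wholly below. Over all 22437 genes, 7.89% lay wholly above and 7.76% wholly below in grain. TaProT2-3D had 0.886, 1.57 and 1.19 CPM in E82 grain, against 0, 0.265 and 0.363 CPM in WT grain, so that its level there was low in both lines.

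The well counted sugar transport genes had lower levels in E82 leaf, although none passed the test over all genes. The study lists 19 such genes, and 12 of them were well counted. In all 12 the E82 libraries lay wholly below the WT libraries, against 14.5% of the well counted genes. Their median log2FC was -2.21, against 0.00 over the well counted genes. Over all genes tested, their adjusted p-values were 0.0618 to 0.16, with unadjusted p-values under 0.05 in all 12. Over well counted genes alone 11 were called lower, against 4.34% of all well counted genes. DESeq2 called all 12. The study chose these genes because they differed in these same libraries, so the list's direction is not independent evidence. The 7 listed genes that were not well counted went both ways, with 2 higher and 3 lower in E82 and 2 too low to be tested.

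The TaSWEET13 genes stood out by their level. SWEET13 proteins carry sucrose out of leaf cells ahead of phloem loading. All 7 listed copies, on chromosomes 6A, 6B and 6D, were well counted. Summed over the 7 copies, their level per length was 1175, 3089 and 2065 TPM (read share per transcript length) in the E82 libraries, against 14041, 14034 and 22488 TPM in the WT libraries, which is 7.99-fold lower on the mean. WT replicate 3 was the highest WT library and E82 replicate 2 the highest E82 library, and the lowest WT library was still more than 4-fold above the highest E82 library. The 4 copies on chromosome 6B have adjoining IDs, and where copies are nearly identical the assignment of a read to one of them is uncertain. The sum avoids this only among the 7 listed copies, and reads shared with genes outside the list were not examined.

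Among the copies, TaSWEET13e-6A (TraesCS6A02G382600) was the most abundant, with 550, 1368 and 951 CPM in E82 and 5764, 5859 and 9139 CPM in the WT. Its log2FC was -2.86 (standard error 0.43), with an adjusted p of 0.0739 over all genes tested by edgeR and 0.00741 over well counted genes alone. TaSWEET13f-6D (TraesCS6D02G367400) had 405, 1005 and 710 CPM in E82 and 3887, 4481 and 6889 CPM in the WT (log2FC -2.85, adjusted p = 0.0739 and 0.00781). TaSWEET13g-6B (TraesCS6B02G421800) had 356, 865 and 549 CPM in E82 and 3913, 3387 and 4426 CPM in the WT (log2FC -2.73, adjusted p = 0.0693 and 0.00691). In these and the other 4 copies E82 replicate 1 was the lowest and E82 replicate 2 the highest of the E82 libraries. TaSWEET13h-6B had the largest difference of the list (log2FC -2.91, standard error 0.44), with 205 ± 86.7 CPM in E82 and 1547 ± 601 CPM in the WT (SD, n = 3 each). TaSWEET13i-6B and TaSWEET13d-6B had log2FC of -2.35 and -2.55, and TaSWEET13b-6D had the smallest of the 7, -2.07. By quantitative PCR the study reported lower expression of TaSWEET13f-6D and TaSWEET13g-6B, measured together, in E82 leaf than in WT leaf. The study designed 1 primer pair for quantitative PCR on TaSWEET13f-6D and TaSWEET13g-6B together, on chromosomes 6D and 6B, which is shown because these are the copies whose identity is tied to a sequence:
TaSWEET13 primer a: cgagtcatcaagaccaagagtg
TaSWEET13 primer b: aggccgtagaggaaccagac

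The SUT1 sucrose transporters, named here after their values were seen, were next in level. The 3 homeologs summed to 261, 527 and 275 TPM in the E82 libraries, against 1405, 1166 and 1398 TPM in the WT libraries, which is 3.73-fold lower on the mean. SUT1A had 201, 383 and 217.2 CPM in E82 and 862, 855 and 788 CPM in the WT (log2FC -1.65, standard error 0.29). SUT1C and SUT1D had log2FC of -1.62 and -1.57. The adjusted p-values by edgeR were 0.0864 for all 3 homeologs over all genes tested and 0.0141 to 0.019 over well counted genes alone. A further pair of SWEET genes, TaSWEET4a-6A and TaSWEET4b-6B, were much lower in level. TaSWEET4b-6B had 19.7, 35.7 and 15.8 CPM in E82 and 49.98, 86.8 and 62.8 CPM in the WT (log2FC -1.49, adjusted p = 0.0864 and 0.035 by edgeR). TaSWEET4a-6A had 24.7, 36.5 and 21.1 CPM in E82 and 36.7, 54.2 and 103 CPM in the WT (log2FC -1.24, adjusted p = 0.16 and 0.0719), and its groups were separated by the narrowest margin of the 12. E82 replicate 2 was the highest E82 library in all 12 sugar transport genes, and in 37.6% of all well counted genes. WT replicate 3 was the highest WT library in 9 of the 12, and in 36.3% of all. Over well counted genes alone, the number called lower was 11 without WT replicate 3, 11 without E82 replicate 2, 7 without E82 replicate 1 and 6 without E82 replicate 3.

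Amino acid transporters were also mostly lower in E82 leaf. Of 36 listed genes 23 were well counted, with a median log2FC of -2.06. One of them, TaProT2-3D, fell in the test over all genes. Over well counted genes alone 19 were lower, 2 were higher and 2 did not pass, against 4.34% lower and 3.12% higher among all well counted genes. The E82 libraries lay wholly below those of the WT in 20 and wholly above in 2, against 14.5% and 19.4% of the well counted genes. The study chose this list, too, on these libraries, and its direction is not independent evidence. Over well counted genes alone, 5, 10 and 4 were called lower without E82 replicate 1, 2 and 3. Of the 12 listed genes left out for low counts, 9 were higher and 1 was lower in E82 and 2 were not tested, and 11 of the 12 had at most 3 counts in every WT library. Among the 9 were all 3 listed lysine and histidine transporter genes (TaLHT), named after their values were seen. They had 50 to 128 counts in the E82 libraries and 0 in every WT library. One more listed gene lies in the 3A range. The direction of the well counted transporters is therefore not that of the whole list.

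Both other homeologs of TaProT2 also had lower levels in E82, and their counts were fewer than those of TaProT2-3D. TaProT2-3B had 2.64, 1.19 and 1.5 CPM in E82 and 34.0, 19.4 and 41.5 CPM in the WT (log2FC -4.15, standard error 0.50, adjusted p = 0.0536 and 0.00651 by edgeR), the largest difference of the list. TaProT2-3A had 3.22, 6.41 and 1.62 CPM in E82 and 47.1, 21.6 and 38.8 CPM in the WT (log2FC -3.26, adjusted p = 0.0864 and 0.0145). Summed over the 3 homeologs the level was 9.76, 10.9 and 6.4 TPM in the E82 libraries, against 172, 103 and 148 TPM in the WT libraries, 15.6-fold lower on the mean. TaProT3-4A, another proline transporter, named after its values were seen, had 16.2, 24.9 and 22.6 CPM in E82 and 61.8, 88.9 and 101.2 CPM in the WT (log2FC -1.98, adjusted p = 0.0693 and 0.0125). TaProT1-2B went the other way, with 36.8, 30.6 and 32.2 CPM in E82 and 7.21, 14.0 and 14.9 CPM in the WT (log2FC 1.47, adjusted p = 0.0864 and 0.0444). The proline transporters thus did not share one direction.

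Amino acid permeases move a broad range of amino acids. Of 17 listed TaAAP genes 14 were well counted, with log2FC from -1.48 to -3.30 and a median of -2.25, and 12 of them were lower over well counted genes alone. Summed over the 14 genes their level was 65.8, 128.5 and 92.8 TPM in the E82 libraries, against 493, 572 and 718 TPM in the WT libraries, 6.21-fold lower on the mean. TaAAP6-2A, TaAAP8-3A and TaAAP22-7A, named after their values were seen, were left out for low counts and went the other way. They had 49, 88 and 88 counts, 27, 18 and 72 counts, and 5, 34 and 0 counts in E82, against 0 in every WT library. TaAAP22-7A was too low to be tested. The 3 homeologs of TaAAP9 are named after their values were seen. TaAAP9-3B had the largest difference of the family. It had 4.66, 14.5 and 12.0 CPM in E82 and 86.5, 78.6 and 141 CPM in the WT (log2FC -3.30, adjusted p = 0.0735 and 0.00865 by edgeR). TaAAP9-3A and TaAAP9-3D had log2FC of -2.82 and -2.74. E82 replicate 1 was the lowest E82 library in all 3 homeologs. The remaining well counted transporters, of which TaTTP3-4A alone is not named after its values were seen, were TaAUX3-3A and TaAUX3-3B, in the family of auxin carriers, with log2FC of -1.49 and -1.97, TaATLb3-2D with -2.40, and TaTTP3-4A. TaTTP3-4A had 51.6, 34.3 and 46.2 CPM in E82 and 12.2, 3.51 and 3.69 CPM in the WT (log2FC 2.77, standard error 0.56, adjusted p = 0.0864 and 0.0191), the largest positive value of the list.

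**Figure D4:**
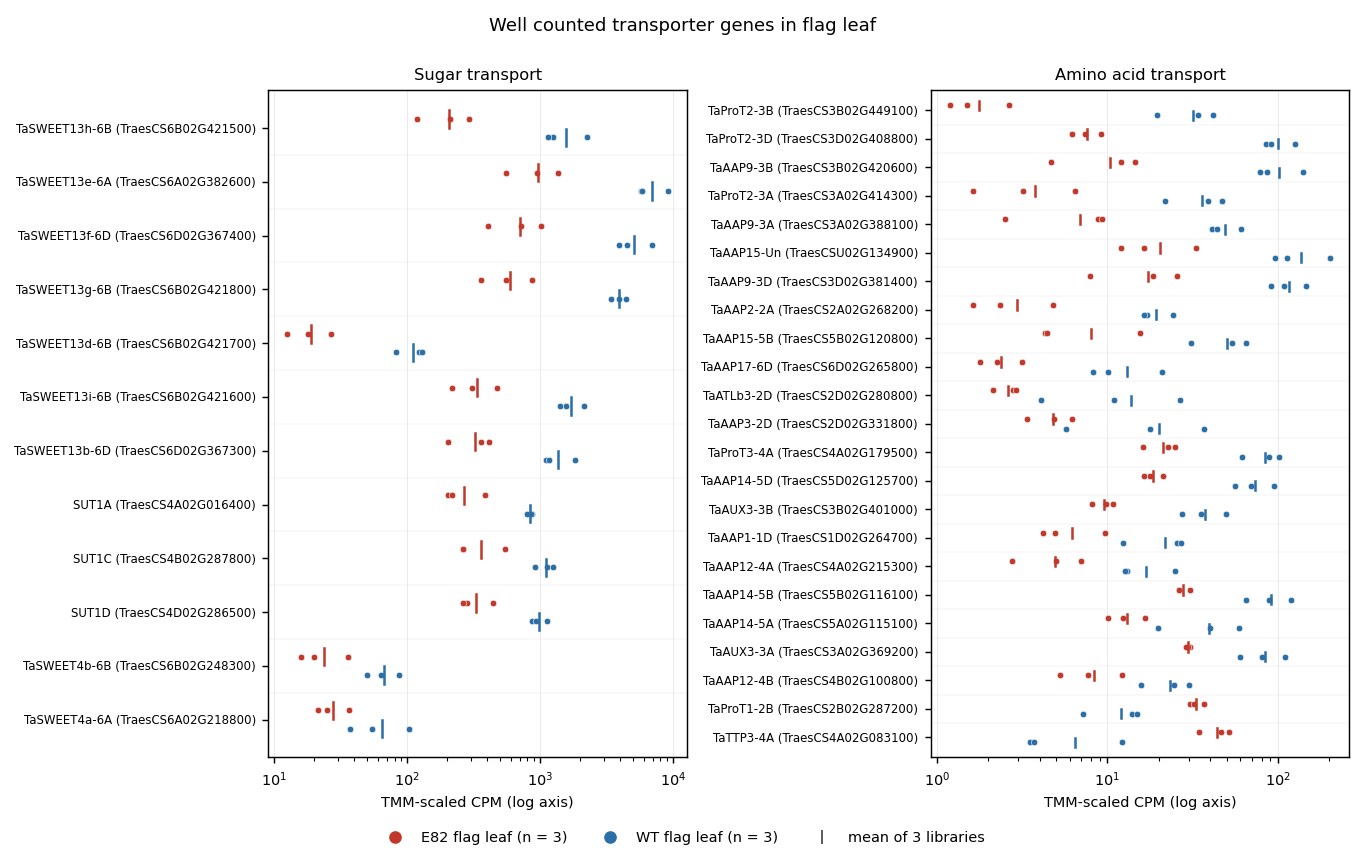
TMM-scaled CPM (log axis) of the 12 sugar transport genes (left) and 23 amino acid transporters (right) that were well counted, in each leaf library, with E82 in red above the WT in blue, and a bar at the mean of 3 libraries. The red points lie wholly left of the blue ones in all 12 sugar transport genes and in 20 amino acid transporters, and wholly right of them in TaProT1-2B and TaTTP3-4A.

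The well counted cystatins, and the well counted papain-like cysteine proteases, the class of enzyme that cystatins inhibit, had lower levels in E82, and no gene of either list passed over all genes. Of 5 listed cystatins 4 were well counted, all with E82 wholly below the WT, against 14.5% of the well counted genes. Their median log2FC was -1.84. Over all genes the adjusted p was 0.0751 to 0.119 (unadjusted p under 0.05 in all 4). All 4 passed over well counted genes alone, where 4.34% of all well counted genes were lower. The other listed cystatin, an Icy2 gene (TraesCS5D02G502200) left out for low counts and named after its values were seen, went the other way, with 6, 11 and 45 counts in E82 and 0 counts in every WT library. Icy1-2 on chromosome 1D (TraesCS1D02G310300) had 37.0, 38.3 and 32.9 CPM in E82 and 77.9, 125 and 93.0 CPM in the WT (log2FC -1.45, adjusted p = 0.0751 and 0.0164). Its homeolog on 1B had a log2FC of -1.47. The Icy8 gene on 2A (TraesCS2A02G126100) had 3.16, 4.02 and 3.04 CPM in E82 and 16, 4.64 and 30.1 CPM in the WT (log2FC -2.31, standard error 0.71), and its homeolog on 2D had -2.21 with a closer spread (standard error 0.47). The WT libraries of the 2A gene differed more than 6-fold among themselves, and WT replicate 2 was close to the E82 libraries. Of the listed papain-like proteases 3 of 9 were well counted, all lower in E82 over well counted genes alone. The HvPap1 ortholog (TraesCS5A02G326100), named for its barley counterpart, had 277, 261 and 307 CPM in E82 and 611, 442 and 643 CPM in the WT (log2FC -1.01, adjusted p = 0.0864 and 0.0263). TraesCS4B02G062500 had a log2FC of -1.32. Of the 6 papain-like genes left out for low counts, 4 were higher and 1 was lower in E82, and 1 was not tested.

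Serine proteases were listed with 31 genes, of which 10 were well counted. Over well counted genes alone 8 were lower and 2 were higher, with no overlap between the lines in any. Of all well counted genes 4.34% were lower and 3.12% higher in that fit, and 14.5% and 19.4% did not overlap. Over all genes tested none of the 10 passed (adjusted p from 0.0751 to 0.0864, unadjusted p under 0.05 in all 10). The largest negative value was that of TraesCS1B02G434100, with 12.1, 21.6 and 11.3 CPM in E82 and 64.2, 70.1 and 214 CPM in the WT (log2FC -2.95, standard error 0.57, adjusted p = 0.0864 and 0.0153). WT replicate 3 alone held about 3 times the level of the other WT libraries in this gene. TraesCS1B02G472100 went the other way, with 74.1, 97.2 and 67.7 CPM in E82 and 29.3, 25.7 and 37.2 CPM in the WT (log2FC 1.37, adjusted p = 0.0864 and 0.0255). Of the 20 listed serine proteases left out for low counts, 10 were higher and 3 were lower in E82 and 7 were not tested, and 16 had at most 3 counts in every WT library. The cystatin and protease lists were likewise chosen by the study on these libraries, and their direction is not independent evidence. In edgeR's fit on well counted genes alone, none of the 17 genes was called without E82 replicate 1 or E82 replicate 3, and 2 were called without E82 replicate 2, although each of the 17 had an unadjusted p under 0.05 in these fits and DESeq2 with all 6 libraries called all of them.

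Genes of starch and sucrose synthesis went both ways. Of 20 listed genes 9 were well counted, with a median log2FC of -0.49. None passed over all genes (lowest adjusted p 0.0739, unadjusted p under 0.05 in 3 higher and 3 lower). Over well counted genes alone 2 of the 9 were higher and 3 lower, against 3.12% and 4.34% of all well counted genes. The higher ones were the sucrose phosphate synthase gene SPS (TraesCS4B02G091100), named after its values were seen, and GBSSII, the granule-bound starch synthase of leaves and other vegetative tissue. SPS had 325, 275 and 340 CPM in E82 and 140, 107 and 93.5 CPM in the WT (log2FC 1.46, adjusted p = 0.0739 and 0.016 by edgeR). GBSSII (TraesCS2B02G390700) had 27.8, 50.6 and 34.1 CPM in E82 and 5.69, 12.5 and 2.18 CPM in the WT (log2FC 2.46, standard error 0.64, adjusted p = 0.0864 and 0.0353). The lower ones were 2 genes for the large subunit of ADP-glucose pyrophosphorylase, which makes the precursor of starch, and a sucrose synthase gene. The subunit gene on 1B (APL3/AGPL1, TraesCS1B02G449700) had 4.57, 10.6 and 4.34 CPM in E82 and 29.6, 10.9 and 52.2 CPM in the WT (log2FC -2.25, adjusted p = 0.102 and 0.0422), and that on 1D had 9.48, 21.9 and 12.4 CPM in E82 and 32.2, 51.6 and 42.5 CPM in the WT (log2FC -1.53, adjusted p = 0.0864 and 0.0356). On 1B the highest E82 library and the lowest WT library nearly met. The study chose this list on these libraries.

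**Figure D5:**
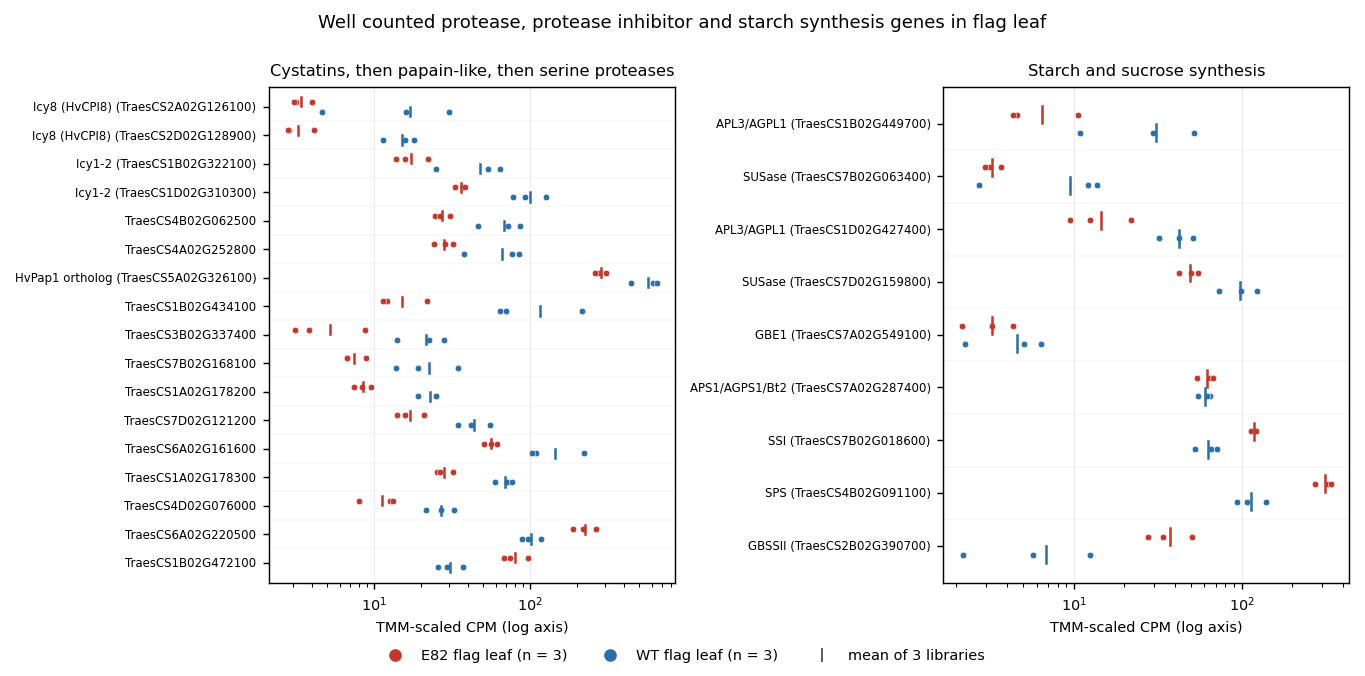
TMM-scaled CPM (log axis) of well counted cystatin, papain-like and serine protease genes (left) and of starch and sucrose synthesis genes (right) in each leaf library, with E82 in red above the WT in blue, and a bar at the mean of 3 libraries. Left, the red points lie left of the blue ones in 15 of the 17 genes. Right, 3 genes lie to each side and 3 overlap.

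Regulators of storage protein and starch genes, a list that the study took from earlier work, went both ways in leaf. Of 49 genes 22 were well counted, with a median log2FC of -0.13, and none passed over all genes (unadjusted p under 0.05 in 0 higher and 3 lower). Over well counted genes alone 2 were lower, both bZIP transcription factors, TabZIP59.2 (log2FC -1.58, adjusted p = 0.0481) and TabZIP77.1, which was named after its values were seen (log2FC -1.37, adjusted p = 0.0405). TabZIP59.2 had 4.49, 9.44 and 7.33 CPM in E82 and 23.0, 27.7 and 12.9 CPM in the WT. In the same fit 4.34% of all well counted genes were lower and 3.12% higher. The E82 libraries lay wholly above those of the WT in 2 of the 22 genes and wholly below in 3, against 19.4% and 14.5% of all well counted genes. The largest positive value without overlap was that of TabZIP54.1 (log2FC 1.44, adjusted p = 0.303 and 0.0804), with 9.31, 6.86 and 8.67 CPM in E82 and 2.11, 3.94 and 3.11 CPM in the WT. Of the 27 regulators left out for low counts, 13 were higher and 5 were lower in E82 and 9 were not tested. In 12 of the 27 every WT library had at most 3 counts. Of the 30 transcription factors that the study selected in grain, 3 were well counted in leaf outside the ID ranges. None of the 3 passed in either fit (unadjusted p under 0.05 in 2, both higher). Another 4 lie in the ranges left out. Of these, MYB59 on 3A and MYB59 on 3D, named after their values were seen, had at least 50 counts in every leaf library. MYB59 on 3A had a log2FC of -6.05 (adjusted p = 0.0536 over all genes tested and 0.00477 over well counted genes alone by edgeR). MYB59 on 3D had a log2FC of 0.50 (adjusted p = 0.408 and 0.365). Of the 3 outside the ranges, 2 were GLK1 genes. GLK proteins are known to regulate chloroplast genes. GLK1 on 7D had 74.4, 64.1 and 106 CPM in E82 and 24.3, 47.9 and 31.1 CPM in the WT (log2FC 1.25, adjusted p = 0.0864 and 0.0561), and GLK1 on 7A had a log2FC of 0.96 with overlapping libraries.

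In gene groups that the study drew from grain co-expression modules, no well counted gene passed over all genes tested. Over well counted genes alone, 3.12% of all well counted genes were higher and 4.34% lower. The groups are too small to be set apart from those shares. For aminoacyl-tRNA ligases, which charge transfer RNAs for protein synthesis, 8 of 13 genes were well counted, none passed in either fit, and the median log2FC was 0.06. Gene silencing by RNA (6 of 13 genes, median -0.17), transaminases (3 of 6, median -0.47), trehalose metabolism (3 of 5, median -0.70), the CCR4-NOT complex (2 of 6, median 0.09) and the microtubule-based process (1 of 13, log2FC 0.76) had no gene past the threshold in either fit. At an unadjusted p under 0.05 these 6 groups held 1 gene, which was lower and belonged to trehalose metabolism. For amino acid synthesis 9 of 13 genes were well counted, with a median of 0.06, and 1 was lower over well counted genes alone, TraesCS5A02G177400 (log2FC -1.40, adjusted p = 0.0433). For starch metabolism 10 of 16 genes were well counted, with a median of 0.07 (unadjusted p under 0.05 in 1 higher and 2 lower), and 2 were lower over well counted genes alone. Both are the APL3/AGPL1 genes described above.

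The 5 genes with the highest mean TPM in leaf have no names in the files. TraesCS7D02G256000 had 2109 TPM in E82 and 7118 TPM in the WT on the mean, with 266, 116 and 82.1 CPM in E82 and 557, 339 and 505 CPM in the WT (log2FC -1.59, adjusted p = 0.1 and 0.0385 by edgeR). The other 4 were higher in all 3 E82 than in all 3 WT libraries. TraesCS4B02G140300 had 8922, 6041 and 9169 CPM in E82 and 4357, 3832 and 3423 CPM in the WT (log2FC 1.06, adjusted p = 0.0924 and 0.0388). TraesCS4D02G135000 had a log2FC of 0.99 (adjusted p = 0.13 and 0.0528). TraesCS5A02G165700 and TraesCS5D02G169900 had log2FC of 0.80 and 0.75 (adjusted p = 0.183 and 0.214 over all genes tested), and with library totals their lines overlapped. E82 replicate 2 was lower than E82 replicate 1 in all 5.

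The well counted genes were spread evenly over the subgenomes, with 7442 on A, 7118 on B and 7655 on D, and 222 with no chromosome assigned. The median log2FC was 0.00 on A, -0.02 on B and 0.01 on D. Of the 22 genes that fell 7 lie on A, 3 on B, 11 on D and 1 is unassigned, and of the 8 that rose 3 lie on A, 2 on B, 2 on D and 1 is unassigned. Chromosome 7D held 4 of the 22, the most of any chromosome. Over well counted genes alone, the share called lower was 4.35% on A, 4.14% on B and 4.43% on D. By chromosome it ran from 2.97% on 6D to 6.04% on 7D, and the share called higher from 2.13% on 7D to 4.85% on 6D. The highest chromosome medians were 0.08 on 6D and 0.07 on 6A, and the lowest was -0.07 on 1B.

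At the minimum of 50 counts, 535 genes had their lowest library between 50 and 60 counts and 595 genes outside the ID ranges between 40 and 50. The median log2FC was -0.27 just inside and -0.17 just outside, the median level was 4.68 and 4.54 CPM, and a WT library was the lowest in 72.5% and 75.1% of them. Among the genes just inside 1 was called, TraesCSU02G056800, and among those just outside none was.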

How the data were processed

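The members and gene lists were chosen with earlier results of these data known. Per the labels, total RNA was depleted of rRNA, and the submitters' processing notes name Trimmomatic 0.36, kallisto 0.44.0, edgeR 3.22.5 and R 3.6.3. The authors deposited estimated counts per gene of the IWGSC RefSeq v1.1 transcripts, not normalized, which were rounded to whole numbers here, and per-library TPM values for each transcript, which were summed per gene. Coordinates were not used.

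edgeR 4.0.16 in R 4.3.3 was run on the 6 leaf libraries with TMM factors and the quasi-likelihood test, on genes with a CPM sum above 1, as E82 over WT, with Benjamini-Hochberg adjustment and a threshold of 0.05. Members were read out afterwards. Standard errors are the absolute log2FC over the root of F. CPM of single genes are TMM-scaled. Alternatives were DESeq2 1.42.0, edgeR's exact and likelihood ratio tests, limma 3.58.1 (voom with sample weights, and log2(TPM + 1) and log2(TPM + 0.1), scales on which low genes' fold changes are understated), RLE or library totals, other filters and count minimums, thinned counts, 12 libraries, a block for the replicate number, and fits without 1 library at a time. The fits were also run on simulated counts with known changes. The simulation gave both lines the same spread, unlike these libraries, so it cannot show how the fits act under unequal spread. Python 3.11.15 with pandas 2.3.3, numpy 2.4.6 and matplotlib 3.10.9 made summaries and plots.

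Named genes are the 8 largest rises and falls among called members without overlap, the extremes of each list without overlap (2 each way for transporters), the 5 members with the highest mean TPM, and same-named homeologs, and others are marked. Lists come from the study's supplementary tables. Lists by gene description, among them the leaf markers, could not be applied, because 0 of the files' gene IDs matched the reference table used here. Antisense and overlapping genes were not separated.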

Additional observations from a re-analysis of the deposited data

How the results depend on the processing

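All 74 genes followed through the alternatives, the 30 called genes among them, kept their direction under each of the 27 alternatives. Most of the 74 were chosen as called genes or list extremes without overlap between the lines, so their direction was largely set by that choice. The number of calls changed. Against 8 higher and 22 lower, the counts were 700 and 974 on well counted genes alone, 1425 and 1636 with DESeq2, 1104 and 826 with the exact test, 1173 and 864 with the likelihood ratio test, 656 and 536 with filterByExpr, 525 and 751 with 12 libraries sharing one spread, 226 and 811 with limma on log2(TPM + 0.1), 69 and 386 on log2(TPM + 1), and 53 and 203 with voom and sample weights. With RLE factors 3 were higher, with library totals 2 were higher and 68 lower, and with no filter beyond 1 count 17 were higher. With 1 library left out, between 0 and 1085 genes were higher and between 0 and 745 lower over all genes tested. On well counted genes alone the counts were 5 and 50 without E82 replicate 1, 108 and 206 without E82 replicate 2, 6 and 51 without E82 replicate 3, 801 and 1107 without WT replicate 1, 759 and 1074 without WT replicate 2, and 938 and 1104 without WT replicate 3. Counts thinned to the smallest library gave 6 and 19, and minimums of 20 or 200 counts gave 8 and 23 or 8 and 18. The causes were not tested. Under stricter filters fewer genes were tested, and the scaling and the spread were also fitted anew, and these were not separated.

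The replicate numbers are shared between lines, but deviations of same-numbered libraries correlated at 0.004, 0.048 and -0.033, so they were not treated as pairs. With the replicate number as a block the counts were 0 higher and 11 lower (2508 higher at an unadjusted p under 0.05), and 667 and 793 on well counted genes alone. Depth differed between the lines, and a gene at the minimum of 50 counts has a lower level in the deeper E82 libraries than in the WT libraries.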
